A study of Mus musculus with 4 samples.

Results

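Transgene features and 1 endogenous gene were followed across single cells of embryonic mouse hindlimbs. WPRE, tdt and CreERT2 are transgene sequences that the authors added to the mouse reference, and Gt(ROSA)26Sor (ENSMUSG00000086429) is the transcript of the Rosa26 locus. These 4 features of 32288 in the count tables were chosen by their measured levels over cell types, sorted fractions and genotypes, so those levels are given as a description, with no test. Tests are printed for other genes only.

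Transgenes read out here as RNA mark alleles rather than endogenous pathways. WPRE is a woodchuck hepatitis virus element placed in the untranslated end of a transgene to stabilise its RNA, tdt codes for the red fluorescent protein tdTomato, and CreERT2 is a Cre recombinase that acts only in the presence of tamoxifen. Rosa26 is a broadly active locus that yields a non-coding transcript, and transgenes are commonly targeted into its first intron. In the study's mice the tdTomato cassette at Rosa26 is silent until Cre removes a stop cassette, whereas the p21 transgene at the Tigre locus is transcribed only where the doxycycline-dependent activator rtTA is made.

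The study concerned Gli1-expressing stromal cells of the fetal limb and what they contribute to cartilage in which p21, the cell-cycle inhibitor encoded by Cdkn1a, is overexpressed in part of the chondrocytes. All embryos carried Gli1CreER/+; R26LSL-tdTom/+; TigreTRE-p21/+, and the Pan-Cart-p21MOE embryos also carried Col2a1-rtTA, which the control embryos lacked. CreERT2 was thus driven by the hedgehog target gene Gli1, and rtTA by the promoter of Col2a1, the major cartilage collagen. Pregnant females received doxycycline from E12.5, in food and at 1 mg/ml in sweetened water (sucrose at 0.5%), and tamoxifen (120 µg/g) by gavage at E13.5, and hindlimbs were collected at E14.5 (the femur and tibia per the labels, the whole hindlimb per the study's text), dissociated and sorted into tdT+ and tdT- cells. Cells of both conditions that made CreERT2 could thus recombine the tdTomato allele, and all cells carried the p21 allele, which needs rtTA. According to the study, WPRE is part of both the tdTomato and the p21 allele and takes most 3′ reads of either transgene. A WPRE UMI (unique molecular identifier, 1 captured RNA molecule) therefore cannot be assigned to either allele.

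The 4 libraries were a tdT+ and a tdT- library for each of the numbers 1 and 2 in the labels, with 11945062 to 39435830 UMIs. Each number is called a collection here, and the labels do not say what it stands for. In collection 1 male Pan-Cart-p21MOE cells were loaded together with female control cells, in collection 2 the sexes were exchanged, and the condition of a cell was read from its sex-linked transcripts. The study's methods list only 1 female Pan-Cart-p21MOE embryo. Elsewhere limbs of several embryos are described as pooled for each sample. Of 18955 barcodes, 2736 cells passed the filters, had a sex called and were kept, 357 to 990 per library. They formed 21 clusters. Clusters named by chondrocyte markers held 1039 cells, other clusters held 1576 non-cartilage cells, and 121 cells of clusters 14 and 17 were left out of both compartments. A chondrocyte list matched both best, but cluster 17 had only 2 detected markers, and cluster 14 had a median depth of 0.141 times that of its library with 0 markers among its top 10 genes. The tdT+ and tdT- cells of a collection come from the same embryos, so the 8 sums of cells per compartment (4 libraries by 2 conditions) stand for 2 sets of embryos per condition, and the Pan-Cart-p21MOE set of collection 2 may be a single embryo. Within a library, condition and sex cannot be told apart. In collection 2 the tdT- library held 2747 barcodes with no sex called among 3912 that passed the other filters.

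Clusters were named by marker lists, Col2a1 among them, so the marker levels describe the compartments and do not test them. Levels are given as CPM, UMIs of a gene scaled to the UMIs of its sum. Col2a1 stood at 5180 to 7040 CPM in the 8 chondrocyte sums, against 787 to 1310 CPM in the non-cartilage sums. The list of 6 resting chondrocyte markers did not separate the compartments in tdT- control cells. Its summed level was 434 to 621 CPM in chondrocytes and 551 to 694 CPM in non-cartilage cells. In tdT+ control cells it was 680 to 704 CPM and 316 to 412 CPM. The summed level of 6 immune markers was 2.41 to 30.2 CPM in 7 chondrocyte sums, and 205 CPM in the eighth, which was tdT- control. None of the 6 markers was at 0 in any group. Cluster 3 (262 cells), which carried 4 chondrocyte markers, was led by Coro1a, Arhgdib and Laptm5 and matched the immune list best, so chondrocyte values were also computed without it. The summed level of 5 endothelial markers was 67.4 to 183 CPM in chondrocyte and 34.7 to 76.0 CPM in non-cartilage sums. That of 5 pericyte markers was 146 to 197 and 69.3 to 123 CPM. Chondrocyte clusters 5 and 13 had Pecam1 and Cdh5 among their leading genes and were kept in both versions.

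The transcript of the locus that hosts the tdTomato allele is shown here because its level is one of the main results. In GENCODE vM21 (GRCm38), Gt(ROSA)26Sor lies on the minus strand of chr6:113067428-113077333 and has 4 annotated transcripts. The gene Setd5 begins on the other strand 31 bases away, at chr6:113077365-113153435, and Thumpd3, at chr6:113046225-113068273 on the plus strand, shares 846 bases with the far end of the gene. The intron after exon 1 spans chr6:113071436-113077067 (5632 bases). The spliced Gt(ROSA)26Sor-202 transcript (412 bases) follows, 5′ to 3′, with exon 1 (chr6:113077068-113077177) in capitals, joined to exon 2 (chr6:113071294-113071435) and followed by exon 3 (chr6:113067659-113067818) in lower case.
Exons 1 and 2: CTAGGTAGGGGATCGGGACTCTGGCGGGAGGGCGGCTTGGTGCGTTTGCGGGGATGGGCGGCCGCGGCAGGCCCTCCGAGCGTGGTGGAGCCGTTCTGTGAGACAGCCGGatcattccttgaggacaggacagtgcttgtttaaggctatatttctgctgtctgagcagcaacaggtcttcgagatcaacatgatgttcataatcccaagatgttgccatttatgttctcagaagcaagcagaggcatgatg
Exon 3: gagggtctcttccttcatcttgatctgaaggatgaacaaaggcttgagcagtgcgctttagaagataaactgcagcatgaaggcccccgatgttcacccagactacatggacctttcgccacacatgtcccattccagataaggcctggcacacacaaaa
The libraries read the 3′ ends of polyadenylated RNA and the capitals mark the exon upstream of the intron named above. Whether reads of introns were counted, and on which strand, was not given in the sources used here, so UMIs of Gt(ROSA)26Sor and Thumpd3 in their shared bases may have been split between them.

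Among the kept cells, WPRE was by far the most abundant of the 3 transgene features. It had 41987 UMIs and was found in 2299 of 2736 cells (84.0%), tdt had 713 UMIs in 470 cells (17.2%), and CreERT2 had 173 UMIs in 163 cells (5.96%). Gt(ROSA)26Sor had 4883 UMIs in 1686 cells (61.6%).

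The reporter transcript tdt followed the sort. In tdT+ chondrocytes its level was 23.7 and 17.4 CPM in the Pan-Cart-p21MOE cells of collections 1 and 2, and 22.2 and 18.5 CPM in the control cells. In tdT- chondrocytes it was 3.09 and 0.783 CPM, and 0.705 and 2.01 CPM. Non-cartilage cells showed the same separation, with 19.4 and 21.1 CPM (Pan-Cart-p21MOE) and 14.9 and 13.2 CPM (control) in tdT+ cells, and 1.11 to 1.54 CPM in the 4 tdT- sums. The tdT+ and tdT- sums did not overlap in either compartment.

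The mean level of tdt in tdT+ chondrocytes was 20.5 ± 4.45 CPM in Pan-Cart-p21MOE and 20.4 ± 2.62 CPM in control cells (SD, n = 2 each). In the fit across all genes, tdt was higher in tdT+ than in tdT- cells by a log2 fold change of 3.97 (SE 0.35) in chondrocytes and 3.76 (SE 0.248) in non-cartilage cells. Pan-Cart-p21MOE and control cells differed in tdt by -0.11 (SE 0.309) in chondrocytes and 0.43 (SE 0.204) in non-cartilage cells, and these values are on the log2 scale with the sorted fraction in the model.

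Despite the sort, tdt was missed in most tdT+ cells. A UMI of tdt was found in 22.3% to 45.8% of the tdT+ cells across the 8 tdT+ sums, and in 1.34% to 5.94% of tdT- cells. At a common depth of 5000 UMIs per cell these shares were 6.40% to 10.3% and 0.00% to 1.89%. WPRE was found in far more tdT+ cells, 397 of 405 chondrocytes and 860 of 904 non-cartilage cells. In 7 of the 8 tdT+ sums every cell with a tdt UMI also had WPRE, and in the control non-cartilage cells of collection 2 it was 44 of 46 (95.7%). Between 1.33% and 6.80% of the cells in a tdT+ sum had neither feature.

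**Figure D1:**
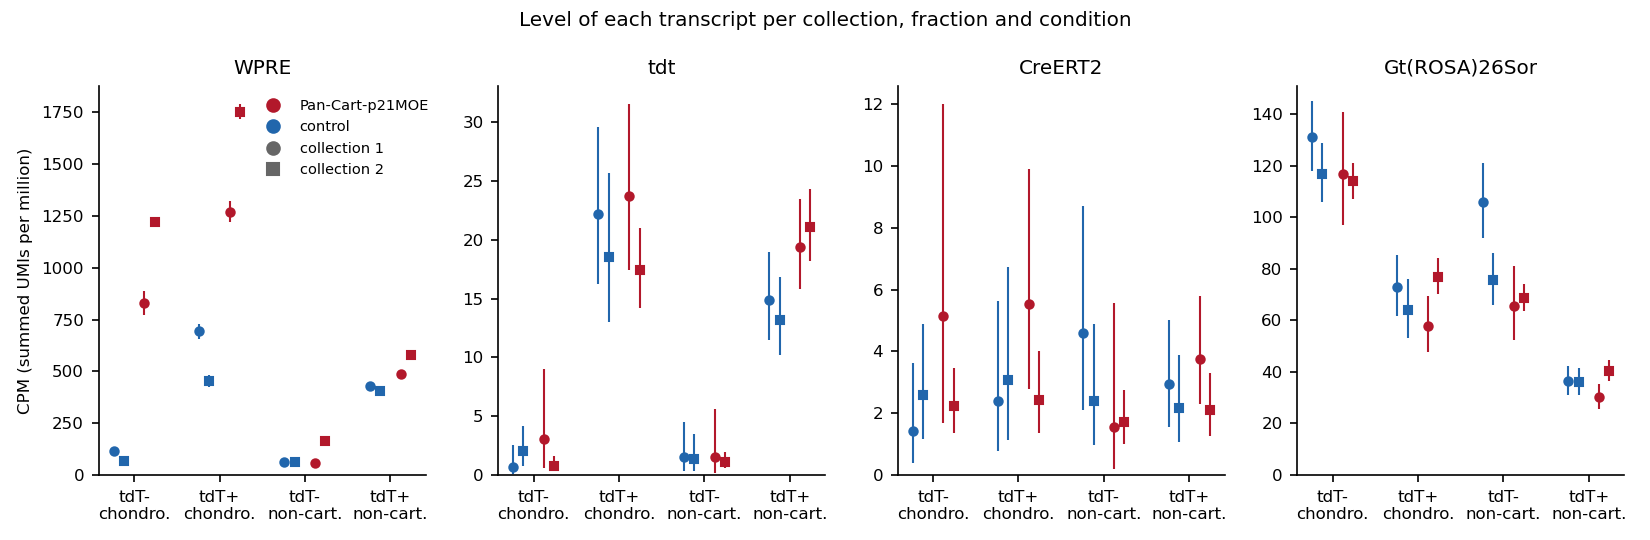
Level of WPRE, tdt, CreERT2 and Gt(ROSA)26Sor in CPM (linear axes from 0, 1 panel per feature) in each of the 16 sums, 2 compartments by sorted fraction, condition and collection. Points are single sums with exact Poisson 95% intervals. tdt is above 13 CPM in every tdT+ sum and at most 3.09 CPM in every tdT- sum. Gt(ROSA)26Sor shows the opposite order within each compartment, and not across the compartments.

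CreERT2 did not follow the sort. Its level was 2.41 to 5.54 CPM in tdT+ and 1.41 to 5.15 CPM in tdT- chondrocytes, and 2.11 to 3.76 and 1.54 to 4.59 CPM in non-cartilage cells, so the ranges overlapped. These levels rest on 37, 38, 63 and 35 UMIs, and no cell had more than 2. The share of cells with a CreERT2 UMI was 2.68% to 16.9% over all sums. In non-cartilage cells the log2 fold change was 0.18 (SE 0.388) between fractions and -0.28 (SE 0.382) between conditions. In chondrocytes the feature fell under the filter on low counts, so 3 of the 4 members were fitted there and all 4 in non-cartilage cells. Gli1, which carries the CreERT2 allele, was measured at 14.9 to 20.7 CPM in tdT+ and 7.21 to 15.2 CPM in tdT- chondrocytes. Its log2 fold change between fractions was 0.44 (SE 0.208) in chondrocytes and 0.45 (SE 0.165) in non-cartilage cells (adjusted p = 0.955 and 0.267, edgeR quasi-likelihood test with Benjamini-Hochberg adjustment).

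WPRE separated both the fraction and, in cartilage, the genotype. In tdT- chondrocytes of Pan-Cart-p21MOE embryos it stood at 830 and 1220 CPM in collections 1 and 2, whereas the tdT- control chondrocytes had 115 and 65.3 CPM. In tdT+ chondrocytes the levels were 1270 and 1750 CPM in Pan-Cart-p21MOE and 693 and 453 CPM in control cells. The 4 groups of 2 did not overlap. Without cluster 3 the tdT- levels were 826 and 1160 CPM in Pan-Cart-p21MOE and 64.6 and 57.5 CPM in control cells, and the tdT+ levels 1140 and 1840 CPM and 562 and 459 CPM, so that the Pan-Cart-p21MOE fractions overlapped between collections. With and without it, the tdT- Pan-Cart-p21MOE chondrocytes, whose tdt level was 3.09 and 0.783 CPM, had more WPRE than the tdT+ control chondrocytes. The fitted log2 fold change between conditions was 2.40 (SE 0.399), larger than that of each of the 11759 other genes tested, and between fractions it was 1.54 (SE 0.391).

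On the linear scale the condition difference in WPRE was of like size in both fractions of the chondrocytes. In collection 1, Pan-Cart-p21MOE cells exceeded control cells by 580 CPM in the tdT+ and 716 CPM in the tdT- fraction. In collection 2 the differences were 1300 and 1150 CPM. In the same way, tdT+ exceeded tdT- chondrocytes by 579 and 387 CPM in control and by 443 and 533 CPM in Pan-Cart-p21MOE cells. On a ratio scale the same contrasts were far apart, with Pan-Cart-p21MOE cells at 1.84 and 3.87 times the control level in the tdT+ fraction and at 7.24 and 18.7 times in the tdT- fraction. The difference between these effects was not tested.

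The ratio of WPRE to tdt UMIs was read within the tdT+ cells. Both features differ in length and place in the transcript, so the ratio serves to compare groups and gives no number of molecules per allele. In control chondrocytes it was 31.3 (95% interval 23.3 to 42.9) and 24.4 (17.5 to 35.1) in the 2 collections. The tdT+ non-cartilage cells had similar ratios, 28.8 and 30.7 in control and 25.2 and 27.4 in Pan-Cart-p21MOE cells. Pan-Cart-p21MOE chondrocytes were higher, with 53.8 (40.3 to 73.4) and 101 (83.5 to 123), and in collection 1 their interval met that of the control chondrocytes. These intervals cover counting error only.

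**Figure D2:**
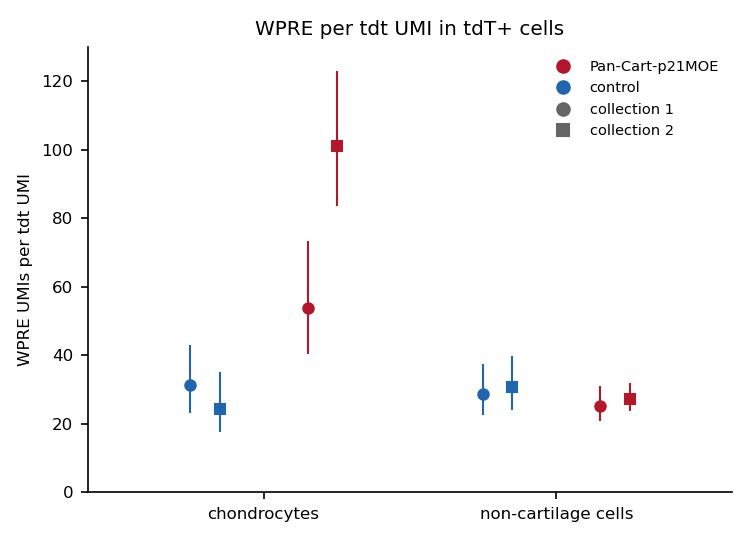
Ratio of WPRE to tdt UMIs (linear axis from 0) in the tdT+ sums by compartment, condition and collection, with 95% counting intervals. The Pan-Cart-p21MOE chondrocytes stand at 53.8 and 101, the other 6 sums between 24.4 and 31.3.

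Within the tdT- Pan-Cart-p21MOE chondrocytes, WPRE was uneven from cell to cell. At 5000 UMIs per cell, 17 of 44 cells in collection 1 (38.6%) had no WPRE UMI, and 73 of 304 in collection 2 (24.0%). A count above the 95th percentile of the tdT- control chondrocytes of the same collection was found in 12 of 44 cells (27.3%, exact binomial interval 15% to 42.8%) in collection 1 and in 146 of 304 (48.0%, 42.3% to 53.8%) in collection 2. Cells above the limit had at least 4 UMIs in the former and at least 3 UMIs in the latter. In the tdT+ fraction the shares above the same limits were 53.4% and 81.2% in Pan-Cart-p21MOE, and 46.7% and 46.3% in control chondrocytes. These cells were split by WPRE, so the levels that follow are a description.

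Cells above the limit did not carry more Cdkn1a in both collections. In collection 1 Cdkn1a stood at 104 CPM in the tdT- Pan-Cart-p21MOE chondrocytes above the limit and 28.7 CPM in the others, and in collection 2 at 55.2 and 77.1 CPM. The summed level of 20 cell-cycle genes was 1200 against 1380 CPM and 1150 against 1430 CPM, lower above the limit in both. Col2a1 was 6060 against 5120 CPM and 7860 against 5830 CPM, higher above the limit in both.

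**Figure D3:**
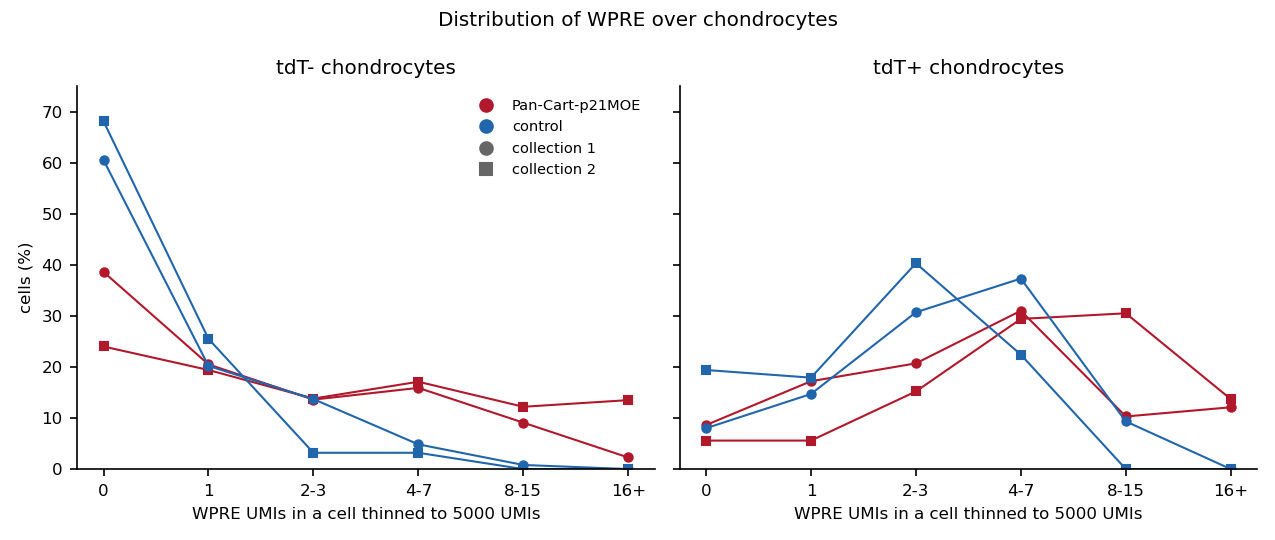
Share of chondrocytes (percent) by number of WPRE UMIs after thinning each cell to 5000 UMIs, for each fraction, condition and collection. In the tdT- control cells of collection 1 60.5% of cells have 0 UMIs, and the tdT- Pan-Cart-p21MOE cells spread from 0 to counts of 16 and more.

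Detection of WPRE in tdT- control cells sets its background, since these cells lack rtTA and were sorted as tdT-. In the tdT- control chondrocytes 61.1% (52.8% to 68.9%) and 74.3% (64.6% to 82.4%) of cells had a WPRE UMI at median depths of 11969 and 29150 UMIs per cell. For the Pan-Cart-p21MOE cells the shares were 80.4% and 85.5% at 17928 and 22414.5 UMIs. Thinned to 5000 UMIs, the shares were 39.5% and 31.9% in control and 61.4% and 76.0% in Pan-Cart-p21MOE cells. Cluster 3 had the highest WPRE level among the tdT- control clusters, 162 CPM (143 to 182), where the other 9 clusters with at least 20 such cells ranged from 49.4 to 97.5 CPM.

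In the non-cartilage class, WPRE in tdT- cells depended on the collection. This class also holds the unnamed clusters 4, 6, 10, 18 and 21 (580 cells). The levels were 57.8 and 166 CPM in Pan-Cart-p21MOE cells and 61.7 and 63.3 CPM in control cells, so 1 of the 4 sums stood above the rest. Detection was 44.4% and 78.0% in Pan-Cart-p21MOE and 52.3% and 65.8% in control cells at median depths of 15239 to 24150 UMIs. After thinning it was 17.0% and 40.3% against 24.5% and 22.6%. In collection 1 the Pan-Cart-p21MOE share was thus below that of the control cells, the background. With a stricter sex call the levels were 86.7 and 268 CPM in Pan-Cart-p21MOE and 64.2 and 45.0 CPM in control cells. The fitted log2 fold change between conditions was 0.62 (SE 0.235), and it was 0.23 without the tdT- Pan-Cart-p21MOE cells of collection 2 and 0.28 without the unnamed clusters. In the tdT+ non-cartilage cells the levels were 488 and 578 CPM in Pan-Cart-p21MOE and 429 and 405 CPM in control cells, and between fractions WPRE differed by 2.39 (SE 0.243) on the log2 scale.

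In collection 2, WPRE in tdT- non-cartilage cells was higher in the clusters with Col2a1 transcripts. At least 1000 CPM of Col2a1 was found in 6 clusters (4, 9, 10, 16, 18 and 21). The unnamed clusters 4, 10, 18 and 21 had 2480 to 3350 CPM, a range that holds the 3030 CPM of the resting chondrocyte cluster 11. In the 6 clusters WPRE was 99.7 and 344 CPM in Pan-Cart-p21MOE and 60.1 and 77.9 CPM in control cells. The 99.7 CPM of collection 1 rest on 50 UMIs in 23 cells, 27 of them in 4 cells of cluster 10, and without that cluster the levels were 54.9 and 445 CPM in Pan-Cart-p21MOE and 58.5 and 93.7 CPM in control cells, so Pan-Cart-p21MOE cells stood above control cells in collection 2 and not in collection 1. In the other 7 clusters WPRE was 31.4 and 66.7 CPM in Pan-Cart-p21MOE and 62.4 and 58.2 CPM in control cells, with no separation of the conditions. The split at 1000 CPM and the omission of cluster 10 were chosen after the levels were seen.

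Cluster by cluster, with both collections pooled and at least 20 cells, the tdT- Pan-Cart-p21MOE cells ran from the cartilage down to muscle and stroma. These values rest mainly on collection 2, since no cluster had more than 15 such cells in collection 1. Proliferative chondrocytes of cluster 2 had the highest pooled level, 1560 CPM (95% counting interval 1510 to 1600), followed by cluster 3 with 1420 CPM (1370 to 1470) and cluster 5 with 1100 CPM (1060 to 1140). Resting chondrocytes (cluster 11) had 909 CPM (848 to 974), and the interval of cluster 18, 851 CPM (737 to 978), overlapped theirs. Hypertrophic chondrocytes (cluster 13) had 543 CPM (498 to 591). Under the minimum of 20 cells, the 18 cells of the proliferative chondrocyte cluster 15 had only 236 CPM (191 to 287), with Col2a1 at 5120 CPM. In collection 1 the order among the proliferative clusters was another, with cluster 5 at 1840 CPM (6 cells), cluster 3 at 855 CPM (7 cells) and cluster 2 at 611 CPM (12 cells), against 1040, 1460 and 1660 CPM in collection 2.

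Cluster 18 had no cell type name. All of its 34 cells were tdT- Pan-Cart-p21MOE cells of collection 2, their median depth was 5527.5 UMIs and their Col2a1 level was 3350 CPM. Among the other non-cartilage clusters, cluster 4, led by Itgbl1 and Bmp5, had 397 CPM (362 to 435), and the Gdf5-positive interzone-like cluster 9, from the region where joints form, had 322 CPM (289 to 358). In collection 1 these clusters had 56.6 and 52.0 CPM, and in collection 2 497 and 366 CPM. Cluster 6 and the Isl1-positive cluster 10 had 154 and 150 CPM with overlapping intervals.

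Among clusters with at least 20 cells the intervals of the lowest levels overlapped. They were 64.2 CPM in osteoprogenitor-like cells (cluster 7), 55.5 CPM in tenocyte-like cells (cluster 12), 53.2 CPM in muscle-like cells (cluster 20) and 49.8 CPM in stromal fibroblast-like cells (cluster 1). The 19 perichondrium-like cells of cluster 8 had 45.0 CPM (27.5 to 69.4). Control tdT- cells of clusters 1 and 12 had 66.2 and 49.6 CPM. The muscle-like and tenocyte-like levels in Pan-Cart-p21MOE cells were therefore within the range of the control background.

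Across clusters with at least 20 cells, the WPRE level followed Col2a1 in the tdT- Pan-Cart-p21MOE cells (Pearson r = 0.91, Spearman rho = 0.861, 15 clusters) and over their 9 non-cartilage clusters (r = 0.886, rho = 0.933), again mainly cells of collection 2. Cluster 15, with 18 tdT- Pan-Cart-p21MOE cells, 236 CPM of WPRE and 5120 CPM of Col2a1, was not among these clusters. In the tdT- control cells r was 0.107 and rho -0.224 over 10 clusters. In tdT+ cells r was 0.747 in Pan-Cart-p21MOE (13 clusters) and 0.589 in control (10 clusters). These values are descriptions: the points share libraries and embryos, clusters are defined by cartilage genes among others, and no p is given.

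**Figure D4:**
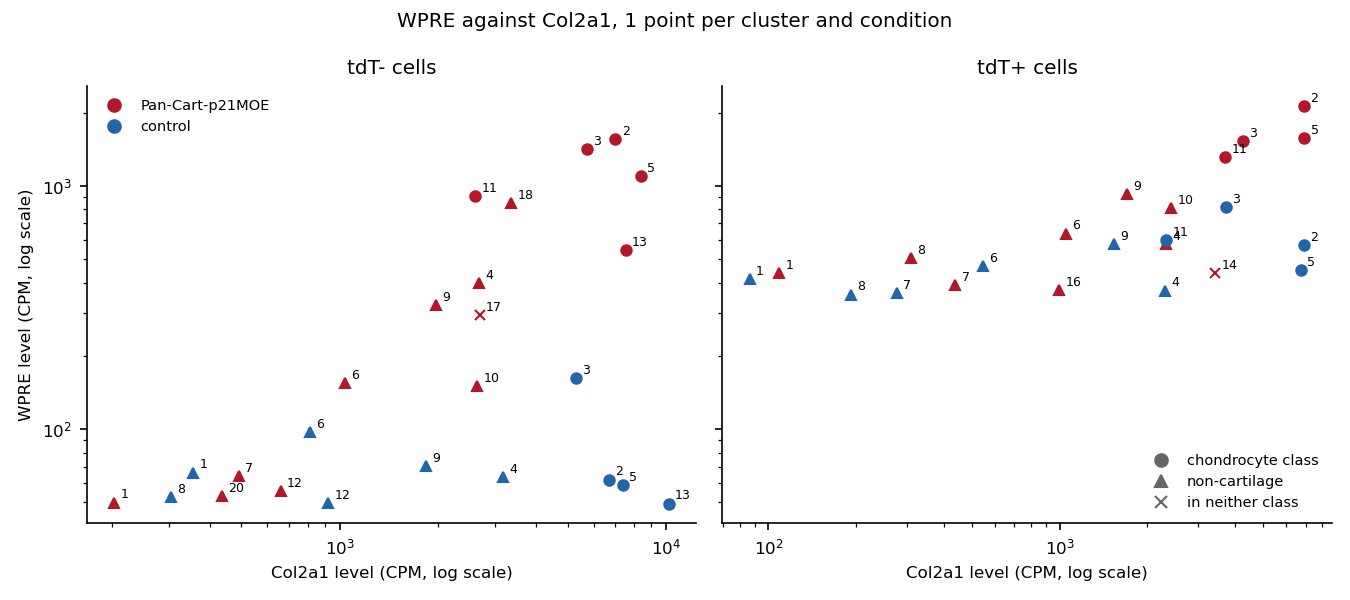
WPRE level against Col2a1 level, both in CPM on log axes, for clusters with at least 20 cells, by fraction and condition. The 15 tdT- Pan-Cart-p21MOE clusters run from 49.8 to 1560 CPM of WPRE with Col2a1, and the 10 tdT- control clusters stay between 49.4 and 162 CPM.

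Gt(ROSA)26Sor ran opposite to tdt. In chondrocytes it stood at 57.9 and 77.0 CPM (Pan-Cart-p21MOE) and 72.8 and 63.9 CPM (control) in tdT+ cells, and at 117 and 114 CPM (Pan-Cart-p21MOE) and 131 and 117 CPM (control) in tdT- cells. In non-cartilage cells the tdT+ levels were 30.3 and 40.3 CPM (Pan-Cart-p21MOE) and 36.3 and 36.1 CPM (control), and the tdT- levels 65.5 and 68.8 CPM and 106 and 75.5 CPM. In both compartments all 4 tdT+ sums were below all 4 tdT- sums. How many other genes had sums without overlap was not counted, here or for tdt and WPRE above.

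Between fractions, the log2 fold change of Gt(ROSA)26Sor was -0.82 (SE 0.117) in chondrocytes and -1.14 (SE 0.149) in non-cartilage cells, or 1.77-fold and 2.20-fold lower in tdT+ cells. Of the other genes tested, 102 of 11759 (0.867%) and 146 of 13529 (1.08%) had a lower log2 fold change in the respective comparison. Between conditions the values were -0.07 (SE 0.116) and -0.21 (SE 0.149). The ratio of tdT+ to tdT- within an embryo pool was 0.493 and 0.678 in Pan-Cart-p21MOE chondrocytes of collections 1 and 2, and 0.556 and 0.545 in control chondrocytes.

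The difference was also seen within cell types, with the collections pooled. Of 27 cluster and condition pairs with at least 10 cells in each fraction, Gt(ROSA)26Sor was lower in tdT+ cells in 27. The order did not hold in every single collection. It was reversed in clusters 1, 3 and 6 of the Pan-Cart-p21MOE cells of collection 1, each with at most 10 tdT- cells. The lowest ratio, 0.292, was in perichondrium-like control cells (cluster 8, 26.1 against 89.5 CPM) and the highest in the small proliferative chondrocyte cluster 15 (82.2 against 99.1 CPM, control). WPRE and tdt were higher in tdT+ cells in 27 of 27 pairs, and CreERT2 was lower in 12 and higher in 13. The pairs share libraries and embryos and are no independent replicates. How many other genes were lower, or higher, in tdT+ cells in all 27 pairs was not counted. These counts are therefore not known to be particular to the features named here.

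**Figure D5:**
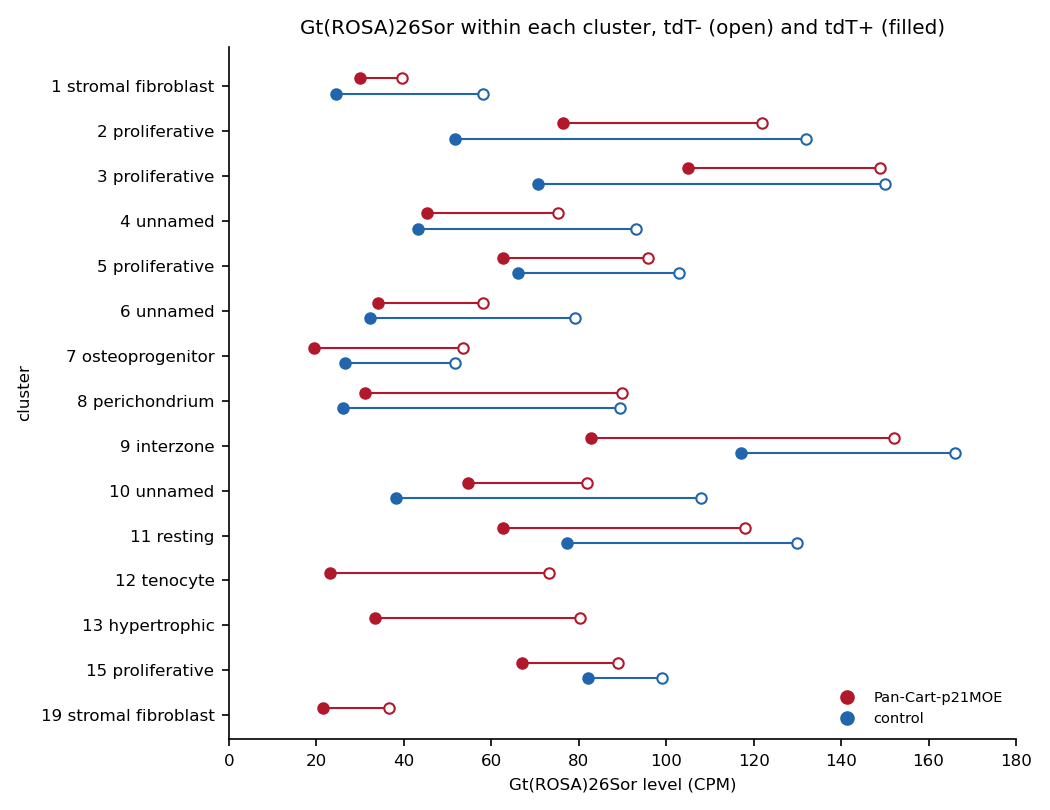
Gt(ROSA)26Sor level in CPM in tdT- and tdT+ cells of each cluster with at least 10 cells per fraction, for both conditions, with filled points for tdT+ and open points for tdT- cells. With the collections pooled, the tdT+ level is the lower one in all 27 pairs.

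Gt(ROSA)26Sor also differed between cell types. Among tdT- Pan-Cart-p21MOE clusters with at least 20 cells it was highest in interzone-like cells (cluster 9, 152 CPM, 130 to 177) and in cluster 3 (149 CPM, 133 to 167), which overlapped, followed by clusters 2 (122 CPM) and 11 (118 CPM). Tenocyte-like cells had 73.1 CPM (61.3 to 86.4). The lowest levels were in stromal fibroblast-like cells (cluster 1, 39.6 CPM, 32.7 to 47.5) and muscle-like cells (cluster 20, 30.9 CPM, 18.3 to 48.8), whose intervals overlapped. In the control tdT- cells clusters 9, 3 and 2 again led with 166, 150 and 132 CPM, and cluster 1 was lowest with 58.2 CPM. In either condition the intervals of clusters 2 and 3 lay above that of cluster 1.

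Cells of the tdT+ fraction with a tdt UMI had less Gt(ROSA)26Sor than those without in 7 of the 8 tdT+ sums. In chondrocytes the values were 51.1 against 66.4 and 68.7 against 83.7 CPM (Pan-Cart-p21MOE), and 56.1 against 95.4 and 49.4 against 76.6 CPM (control). In non-cartilage cells they were 28.5 against 31.8 and 27.1 against 41.5 CPM in collection 1, and 40.4 against 40.3 and 30.8 against 38.0 CPM in collection 2. The cells were split by a UMI count, so these values are a description.

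The neighbours of Rosa26 gave no call. Setd5, a chromatin-associated protein gene on the opposite strand, differed between fractions by -0.03 (SE 0.115) in chondrocytes and -0.05 (SE 0.07) in non-cartilage cells. Thumpd3, which overlaps the far end of Gt(ROSA)26Sor, differed by -0.03 (SE 0.135) and -0.42 (SE 0.149), with adjusted p = 1.00 and 0.251 (edgeR). Of the 8 listed genes around Rosa26, 6 were tested in chondrocytes and 7 in non-cartilage cells, and 0 were called in either direction. Of 12 reference genes 0 were called, and their median log2 fold change was -0.08 in chondrocytes and -0.06 in non-cartilage cells, with the lowest at -0.23 (Hprt) and -0.38 (Pgk1). The median over all genes tested was 0.00 in both.

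The background of the fits across all genes was as follows (edgeR quasi-likelihood test, adjusted p of 0.05). Between fractions, 80 of 13529 genes (0.591%) were higher and 145 (1.07%) lower in tdT+ non-cartilage cells. In chondrocytes 0 of 11759 were higher (0%) and 0 lower (0%), with 593 genes at an unadjusted p under 0.05 and 10 called by DESeq2. Between conditions in chondrocytes 5 genes (0.0425%) were higher and 28 (0.238%) lower in Pan-Cart-p21MOE, and in non-cartilage cells 1 was higher (0.00739%) and 0 lower (0%), with 773 at an unadjusted p under 0.05 and 9 called by DESeq2. The members were left out of these counts.

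Genes tied to the alleles and their drivers were read beside them. In non-cartilage cells the hedgehog list, of which 15 of 19 genes were tested, had 3 higher and 2 lower in tdT+ cells. Ptch1, the hedgehog receptor and a target of the pathway, was higher by 0.79 (adjusted p = 0.002, edgeR) and Hhip, a hedgehog-binding inhibitor, by 0.96 (adjusted p = 0.0205). Gas1, a co-receptor, had a log2 fold change of -1.04 (adjusted p = 0.00995). With the stricter sex call, Gas1 was no longer called (adjusted p = 0.0622). Single sums whose omission ended the call were, for Hhip, the tdT+ control of collection 1 and both tdT- sums of collection 2 (adjusted p = 0.0563 to 0.105). The median of the list was 0.21. In chondrocytes 0 of its 16 tested genes were called between fractions.

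Of 16 cartilage matrix genes 7 were called lower in tdT+ non-cartilage cells and 0 higher, with a median log2 fold change of -0.50. They included Snorc, a cartilage proteoglycan (-1.41, adjusted p = 0.0057, edgeR), Hapln1, a link protein (-0.78, adjusted p = 0.0252), Acan, which codes for aggrecan (-0.70, adjusted p = 0.00394), and Col9a2 (-0.51, adjusted p = 0.00821). Col2a1 itself had -0.45 (adjusted p = 0.0332). Its call was lost with the stricter sex call (adjusted p = 0.1), without Scrublet removal (adjusted p = 0.42) and at the finer cluster resolution (adjusted p = 0.307), and so were those of Snorc, Hapln1 and Col9a2 under each of these 3 alternatives. Acan lost its call with the stricter sex call (adjusted p = 0.0869) and without Scrublet removal (adjusted p = 0.0902). Omitting single sums ended the call of Hapln1 (adjusted p = 0.0524 to 0.0936) and Col2a1 (adjusted p = 0.0869 to 0.125) for either tdT+ sum of collection 1, the tdT+ control and the tdT- Pan-Cart-p21MOE sum of collection 2, and for Hapln1 also the tdT- control of collection 2. In chondrocytes 0 of 16 were called between fractions.

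Between conditions in chondrocytes, 1 of the 16 matrix genes was called, Matn3, a matrilin of the cartilage matrix, lower in Pan-Cart-p21MOE (log2 fold change -1.23, adjusted p = 0.0158, edgeR). Its call was lost with the fractions of a pool summed (adjusted p = 0.103) with the stricter sex call (adjusted p = 0.106), and without the tdT+ sums of collection 2 or its tdT- Pan-Cart-p21MOE sum (adjusted p = 0.071 to 0.0798). Of the 20 listed cell-cycle genes 0 were called, the lowest p belonging to Top2a (-0.51) and Mki67 (-0.83), both with adjusted p = 0.108. Outside the list, the 28 genes called lower included 11 histone genes and the cycle genes Ndc80 (-1.12), Fbxo5 (-0.81) and Gmnn (-0.68), and the 5 called higher were Lrba (0.86), Cpq (0.74), Prkce (0.67), Hey1 (0.70) and Dpysl3 (0.99), all named after their values were seen. With the fractions of a pool summed, edgeR called 0 genes (882 at an unadjusted p under 0.05), and with the stricter sex call it called 1. In non-cartilage cells the single call was the lincRNA Gm28653 (adjusted p = 0.00337), which is among the leading genes of the muscle-like cluster 20. The summed level of 6 muscle markers there was 411 to 487 CPM in tdT- Pan-Cart-p21MOE and 2.55 to 153 CPM in tdT- control cells, and its part in the call was not tested. The call was lost with the fractions of a pool summed (0 calls, 632 genes at an unadjusted p under 0.05 in edgeR), with the stricter sex call (0 calls, 580 genes) and without the tdT- control cells of collection 2.

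Cdkn1a, the gene that encodes p21, gave no call between the conditions. It stood at 48.9 and 66.3 CPM in the tdT+ Pan-Cart-p21MOE chondrocytes and 23.1 and 33.0 CPM in the tdT+ control chondrocytes. In tdT- chondrocytes it was 52.5 and 65.5 CPM against 52.2 and 90.0 CPM. The groups were apart in the tdT+ fraction and overlapped in the tdT- fraction, and the fitted log2 fold change between conditions was 0.34 (SE 0.278, adjusted p = 0.763, edgeR). The study states that reads of the p21 transgene fall mostly on WPRE, so Cdkn1a UMIs need not include them. In non-cartilage cells the value was 0.30 (adjusted p = 0.976). Between fractions it was -0.67 (adjusted p = 0.934) in chondrocytes and -0.53 (adjusted p = 0.40) in non-cartilage cells.

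Col2a1 between conditions was 0.02 (adjusted p = 0.983, edgeR) in chondrocytes and 0.12 (adjusted p = 0.973) in non-cartilage cells, and Gli1 was 0.22 (adjusted p = 0.805) and -0.20 (adjusted p = 0.984). The other loci gave 0 calls in the 4 comparisons, for 6 of 6 genes around Tigre and 3 or 4 of 7 around Gli1 that were tested, as did 12 tested p53 target genes of 15.

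The genes most like each member were ranked over 51 sums per cluster, library and condition with at least 20 cells, by Pearson r of log2(CPM + 10) among 7126 genes with a mean of at least 20 CPM. For Gt(ROSA)26Sor they were Ldha (r = 0.84), Pgk1 (0.84), Scrg1 (0.81), Slc16a3 (0.80) and Higd1a (0.80), and Col2a1 reached 0.72. Ldha and Pgk1 are enzymes of glycolysis. For tdt the closest were Fut8 and Zfp277 (0.50 each) and Pus10, Ptch1 and Crispld1 (0.48 each), and Gli1 reached 0.47. For WPRE they were Cox6b2 (0.54), Sh3bp1 (0.52), Calml4 (0.51), Chchd7 (0.51) and Sec62 (0.49), with 0.24 for Col2a1 over the same sums, fractions and conditions together. For CreERT2, which had few UMIs, they were Zfp637 (0.54), Pgrmc1 (0.53), Numbl, Pmp22 and 9530068E07Rik (0.50 each). Among the members themselves tdt and Gt(ROSA)26Sor had r = -0.50 and WPRE and tdt r = 0.46, and the other pairs lay between -0.09 and 0.13. The sums share embryos and libraries, and no p is given.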

How the data were processed

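Hindlimb cells (E14.5) were profiled with a droplet kit for 3′ ends. The authors aligned the reads with Cell Ranger 7.2.0 (per the labels) to GRCm38 with tdt, CreERT2 and WPRE added, and the deposited values are their UMI counts, not normalised. The study's methods name CellBender and DoubletFinder, whose output was not used here. The setting for intron reads was not given in the sources used here. The members and the gene lists were chosen with earlier results of these data known.

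Python 3.11.15 and scanpy 1.11.5 were used for the single-cell steps. A barcode was retained from 1000 UMIs and 500 genes on, if mitochondrial UMIs did not exceed 10%. Calls of sex rested on at least 2 sex-linked UMIs with 80% of 1 side, and the condition followed from the sex that the study's methods assign to each library. Cells with UMIs of both sexes (277) and the top 5% of Scrublet scores per library were removed as doublets. No sex was called for 3729 barcodes. Across libraries 40 barcode strings were shared, 2 of them among the kept cells. Cells were scaled to 10000 UMIs, reduced to 30 principal components of 2000 variable genes, with the members, Gli1, Cdkn1a, sex-linked, histone, mitochondrial and cell-cycle genes left out, and grouped with leidenalg 0.10.2 (resolution 1). Naming required a marker score of 0.5 and 3 detected markers, and clusters far below the depth of their library with none of these markers among their top 10 genes stayed unnamed.

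Counts were summed per library, condition and compartment, because cells are not replicates. The 8 sums were fitted in R 4.3.3 with edgeR 4.0.16 (filterByExpr, TMM, glmQLFit and glmQLFTest) with fraction or condition as covariate, and DESeq2 1.42.0 was run beside it. Genes with a Benjamini-Hochberg adjusted p under 0.05 were called. The fitting script was tested on simulated data. Where nothing says that sums come from separate embryos, p-values measure only the spread between these sums. Levels are CPM with exact Poisson 95% intervals, and shares have exact binomial ones, both for counting error only. Depth limits low features most.

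The labels give tdT+ and tdT- libraries of a collection the same number. Deviations from the group means correlated between such libraries (0.317 and 0.292 in chondrocytes, 0.334 and 0.173 in non-cartilage cells). The numbers were taken to pair them. Within a condition the number also goes with sex, so these correlations cannot tell shared embryos from shared sex. Pan-Cart-p21MOE and control cells of 1 library gave -0.232 to 0.0153. Genes were named by rule: the members, Gli1, Col2a1 and Cdkn1a, up to 4 called genes per list (otherwise those with the lowest p, given here only where a result turns on them), and the 5 most alike genes per member. The authors' cell annotation was not used here. Not every result named by this rule is reported here.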

Additional observations from a re-analysis of the deposited data

Results flagged for a closer look

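Among 16 groups of 4 sums of a member's level, 1 held a sum far from the other 3. WPRE in tdT- non-cartilage cells stood at 166 CPM in the Pan-Cart-p21MOE cells of collection 2, with the other 3 sums at 57.8 to 63.3 CPM. The 4 sums of a group come from both conditions and are not draws of 1 kind, so the flag is a description and no test. In that sum clusters with at least 1000 CPM of Col2a1 had 344 CPM of WPRE and the other clusters 66.7 CPM.

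Barcodes under 1000 UMIs, which no comparison used, also held WPRE. Summed over them, its level was 269 CPM in the tdT- library of collection 1 and 532 CPM in that of collection 2, above the 61.7 to 115 CPM of the 4 tdT- control sums. In the 2 tdT+ libraries it was 741 and 809 CPM. In the same tdT- barcodes tdt had 0 UMIs, which allows a level of up to 2.60 and 1.83 CPM, and Gt(ROSA)26Sor was 92.8 and 92.1 CPM, against 52.8 and 43.9 CPM in the low barcodes of the tdT+ libraries. These barcodes have no condition.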

How the results depend on the processing

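Of 241 values of the members' log2 fold changes under the alternatives, 240 moved by less than 1 SD of the log2 ratios between paired sums. The exception was tdt between fractions in non-cartilage cells, 3.37 to 3.88 with 1 sum left out. That SD is wide where the paired ratios differ, as for WPRE between conditions in chondrocytes (1.84 to 18.7). For WPRE between conditions in non-cartilage cells, even 0.23 and 1.00 against 0.62 counted as not moved. The count therefore says little about stability. Gt(ROSA)26Sor between fractions ranged from -0.95 to -0.75 in chondrocytes and from -1.28 to -0.98 in non-cartilage cells, and WPRE between conditions from 2.01 to 2.77 and from 0.23 to 1.00. Of 384 shares of cells with a UMI, 127 moved.

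With a block for the library, WPRE between conditions was 2.41 in chondrocytes. With a block for the collection, Gt(ROSA)26Sor between fractions was -0.82 and -1.14. The library block pairs the conditions of a library, which come from different embryos. It does not join the tdT+ and tdT- sums of the same embryos, so its calls are not corrected for them. It gave 27 calls between conditions in chondrocytes (15 of the 33) and 1 in non-cartilage cells. The collection block gave 1 in place of 0 between fractions in chondrocytes and 230 in place of 225 in non-cartilage cells. Counts of calls depended strongly on the processing. Between conditions in chondrocytes, the 33 calls became 452 with no filter on low counts, 106 with DESeq2, 0 with the fractions of a pool summed, 6 from 3000 UMIs, 1 with the stricter sex call and 5 at Leiden resolution 2. With 1 sum left out they were 1 to 34. The count fell to 8, 11, 1 and 5 without the tdT+ Pan-Cart-p21MOE and control cells of collection 1 and those of collection 2, and to 2 and 6 without the tdT- Pan-Cart-p21MOE and control cells of collection 2. In non-cartilage cells the 1 call became 263 with no filter, 9 with DESeq2, 0 with fractions summed, 0 with the stricter sex call and 1 to 2 with 1 sum left out. Between fractions in chondrocytes, 0 calls became 1 with RLE size factors, 314 with no filter, 10 with DESeq2, 1 from 3000 UMIs, 1 without Scrublet removal and 0 to 4 with 1 sum left out. In non-cartilage cells 225 became 1003 with no filter, 349 with DESeq2, 71 with the stricter sex call, 136 without Scrublet removal and 97 to 232 with 1 sum left out, the lowest without the tdT- Pan-Cart-p21MOE cells of collection 2. It was 124 and 107 without the tdT+ Pan-Cart-p21MOE and control cells of collection 1, and 107 and 141 without the tdT+ and tdT- control cells of collection 2. The cause was not tested. The alternatives that leave out cluster 3 or the unnamed clusters were chosen after seeing the data. Low features such as CreERT2 are limited by depth.

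Genes that were not called changed sign, mostly close to 0. Further from 0 were the reversed values of Cdkn1a (-0.28), Mki67 (-0.31 and -0.23) and Bub1 (-0.22), given with their settings below. Between conditions in chondrocytes, Srgap3 was 0.04 and Thumpd3 -0.11 at Leiden resolution 2, R3hdm2 -0.0036 and Col2a1 -0.0044 without cluster 3, Setd5 0.06 without the tdT- control cells of collection 2 (-0.15 to 0.06 over all sums left out), and Col2a1 -0.02 with fractions summed, -0.02 with the stricter sex call, -0.0028 without Scrublet removal and -0.04 to 0.12 with 1 sum left out (-0.04, -0.02 and -0.03 without the tdT+ sums and the tdT- Pan-Cart-p21MOE sum of collection 2). In non-cartilage cells AB124611 was -0.11 with the stricter sex call, Col9a2 -0.04 and Col2a1 -0.09 without Scrublet removal, Cdkn1a -0.28 without the unnamed clusters and -0.0014 to 0.51 with 1 sum left out, and Setd5 0.02 with fractions summed, 0.0012 from 3000 UMIs, 0.01 with the stricter sex call, 0.04 without Scrublet removal, 0.02 at Leiden resolution 2 and -0.06 to 0.02 with 1 sum left out. Between fractions in chondrocytes Srgap3 was -0.05 with the stricter sex call and -0.01 at Leiden resolution 2, Ddit3 0.05, Bub1 -0.06 and Mki67 -0.23 without Scrublet removal, Bub1 -0.22 and Mki67 -0.31 from 3000 UMIs, and Hprt 0.0024 and B2m 0.02 with the stricter sex call. Setd5 was 0.01 at Leiden resolution 2 and -0.12 to 0.09 with 1 sum left out, and Thumpd3 0.03 from 3000 UMIs, 0.06 without Scrublet removal, 0.0016 at Leiden resolution 2 and -0.12 to 0.06 with 1 sum left out. In non-cartilage cells Setd5 was 0.0026 with the stricter sex call.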

Other observations

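Barcodes that passed the filters but had no sex called, and hence no condition, had WPRE at 1070 and 734 CPM in the tdT+ libraries of collections 1 and 2 and at 233 and 468 CPM in the tdT- libraries. Gt(ROSA)26Sor in the same barcodes was 44.8 and 50.6 CPM in the tdT+ and 97.5 and 92.3 CPM in the tdT- libraries. These barcodes come from the same 4 libraries as the kept cells, so they are no independent check of the order of the fractions. tdt was 4.56 and 21.7 CPM in the tdT+ and 0.702 and 0.609 CPM in the tdT- libraries.

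The unnamed cluster 14, left out of both compartments, held 79 cells, 77 of them tdT+ Pan-Cart-p21MOE cells of collection 2, with a median of 3138 UMIs per cell. Its WPRE level was 435 CPM, its tdt level 32.1 CPM and its Gt(ROSA)26Sor level 43.8 CPM. Cluster 17, also left out, held 42 cells, 39 of them tdT- Pan-Cart-p21MOE cells of collection 2, with 308 CPM of WPRE, 2.19 CPM of tdt and 65.6 CPM of Gt(ROSA)26Sor.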
